A study of Mus musculus with 7 samples.

Results

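Actb, B2m, Gapdh and Rpl19 are the 4 mRNA probes carried beside 566 mouse miRNA probes on the mouse miRNA panel of the NanoString nCounter, an instrument that counts single color-coded probes bound to RNA with no amplification step. They were taken by name from the 620 probes of the value table, and all 4 were found. They were measured in 4 astrocytomas and 3 samples of normal neocortex, all from CD1 mice. The tumors came from transgenic hGFAP-HaV12-Ras mice, in which an activated Ras oncogene is driven by the human GFAP promoter, active in astrocytes, and were taken at postnatal days 65, 104, 125 and 134 (tumor 1 to 4). The neocortex samples were layers II to IV of wild-type mice at postnatal day 60, so the 2 groups differed in age and in the tissue sampled as well as in the transgene. Tumor 2 and neocortex 2 were female and the other 5 samples male. Nothing in the labels says that each sample came from its own mouse, so the p-values measure the spread between these samples.

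Beta-2 microglobulin, the product of B2m, is the light chain of major histocompatibility complex class I, the surface complex that presents peptides to CD8+ T cells. Its gene is induced by interferons and by NF-kappa B signalling, and in healthy brain it is low in neurons and higher in microglia and vessel cells. The other genes are common reference genes: Actb encodes cytoplasmic beta-actin, Gapdh a glycolytic enzyme and Rpl19 a protein of the large ribosomal subunit.

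B2m was far higher in the tumors than in neocortex, and it was higher beyond the shift that the other mRNA probes showed. It was counted 252, 218, 275 and 268 times in tumor 1 to 4, against 16 and 10 times in neocortex 1 and 2 and under the cutoff of 8 counts in neocortex 3. These counts were not scaled, and the tumors gave more counts in all: Actb had 963 to 1166 in tumor and 101 to 189 in neocortex. Set against Actb of the same sample, B2m was 2.89-fold higher in tumor, and set against Gapdh and Rpl19 it was 3.64-fold and 2.81-fold higher. The size of these folds is not settled, because B2m in neocortex was counted below the highest negative control. With that control subtracted, the shifts of 1.53, 1.86 and 1.49 on the log2 scale became 1.31, 1.15 and 0.65. These are lower bounds under that choice, since B2m of neocortex was held at the cutoff while the other probes lost counts. Against the mean of the other mRNA probes the shift was 1.63, and also 1.63 with the mean of the negative controls subtracted, again with B2m of neocortex held at the cutoff. Rpl19 and Actb, as counted, kept nearly the same ratio in both tissues.

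The promoter of B2m is shown because it carries the elements through which interferon and NF-kappa B are known to act on this gene. The RefSeq window of GRCm38.p6, chr2:122147437-122147736 on the plus strand, runs from 250 bases before the start of the gene to 50 bases after it. The capitals mark first a match to the interferon-stimulated response element, searched as GAAANNGAAA, and then a match to ACTTTCC, a part of a common kappa B site, found here on the reverse strand.
B2m: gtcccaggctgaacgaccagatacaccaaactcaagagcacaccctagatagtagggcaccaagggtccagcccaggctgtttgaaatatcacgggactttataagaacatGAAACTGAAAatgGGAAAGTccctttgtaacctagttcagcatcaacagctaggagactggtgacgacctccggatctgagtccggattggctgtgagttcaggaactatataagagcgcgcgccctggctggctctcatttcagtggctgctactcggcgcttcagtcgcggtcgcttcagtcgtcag
The first match lies at -139 to -130 from the start of the gene and the second at -126 to -120, so they do not overlap. Searched on both strands, GAAANNGAAA was found in 3.44% and ACTTTCC in 4.97% of 32851 promoter windows of the same length. Neither was found in the 1 window of Gapdh or the 2 windows of Rpl19, which says only that these letters are not in those windows. Actb had no window in this set and was not searched. A match is a run of letters and was not tested as a working site. B2m lies on chromosome 2 (122147687 to 122153082), Actb on chromosome 5 (142903115 to 142907976), Gapdh on chromosome 6 (125161852 to 125166467) and Rpl19 on chromosome 11 (98022003 to 98030493) of GRCm38.p6.

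The deposited values are log2 levels whose scaling method is not given in the sources used. On the linear scale the mean of the 100 brightest miRNAs of a sample was 1010.0 to 1016.2 in tumor and 994.4 to 1007.8 in neocortex. A probe under a cutoff of its sample is listed at 0. The low values are whole multiples of 1 number per sample, from which counts were recovered. The tumors gave 117618 to 208122 miRNA counts and 1791 to 2115 counts over the 4 mRNA probes, against 23562 to 60804 and 154 to 307 in neocortex, while the highest positive control, an RNA added in a fixed amount, gave 13106 to 16901 counts in tumor and 10275 to 14882 in neocortex. The neuron-specific miR-124 lay at 11.74 to 12.00 on the log2 scale in tumor and at 12.21 to 13.07 in neocortex, so the neuronal marker was abundant in both tissues. In such bulk tissue, fewer cells of a type and less RNA per cell cannot be told apart.

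B2m had deposited log2 levels of 7.92, 7.31, 7.88 and 7.15 in tumor 1 to 4, against 4.84 and 4.88 in neocortex 1 and 2 and 0 in neocortex 3, where the cutoff was 5.21. All 4 tumors lay above all 3 neocortex samples. With the 0 set to the cutoff, B2m averaged 7.57 ± 0.39 in tumor (SD, n = 4) and 4.98 ± 0.20 in neocortex (SD, n = 3), a difference of 2.59 with an SE of 0.25 (limma adjusted p = 0.000183, adjusted by Benjamini-Hochberg over 287 probes, as elsewhere). With the 0 left as listed the adjusted p of B2m was 0.0569 by the same test, because the listed 0 in neocortex 3 widened the spread there to an SD of 2.81. Without neocortex 3 the difference of the listed values was 2.71 (adjusted p = 0.00286 in limma), and without neocortex 1 or 2 it also passed, at 5.13 and 5.15 (adjusted p = 0.0395 and 0.0470 in limma). With any 1 tumor left out it did not pass, at 4.21 to 4.46 (adjusted p of 0.114 to 0.129 in limma).

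**Figure D1:**
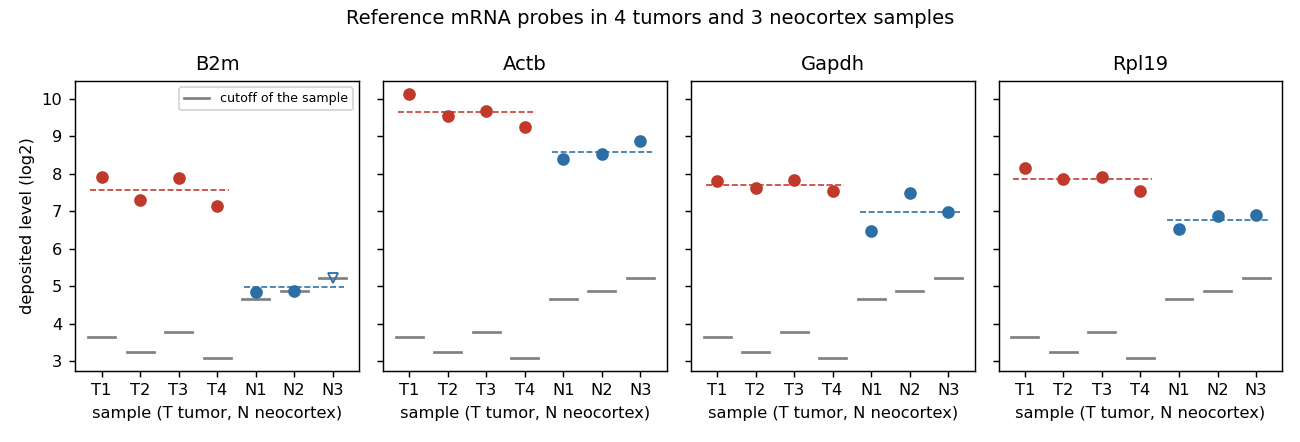
Deposited log2 level (y axis) of B2m, Actb, Gapdh and Rpl19 in the 4 tumors (T, red) and the 3 neocortex samples (N, blue); gray bars mark each sample's cutoff, dashed lines the group means, and the open triangle B2m in neocortex 3, which was under the cutoff and is drawn at it. B2m lies at 7.15 to 7.92 in tumor and at or near the cutoff in neocortex.

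In neocortex the B2m probe was not clearly above background, being near or under the cutoff and below the highest negative control. Of the 8 negative controls, only that 1 lay above the cutoff in neocortex. The highest negative-control probe, which has no target in the sample, gave 15, 16, 21 and 21 counts in tumor 1 to 4, against 24, 18 and 12 in neocortex 1 to 3. B2m was 12.8 to 16.8 times that count in the tumors, and 0.667 and 0.556 times it in neocortex 1 and 2. The exact Poisson 95% intervals of the B2m counts, which cover counting error only, were 222 to 285, 190 to 249, 243 to 309 and 237 to 302 in the tumors, against 9.15 to 26.0 and 4.80 to 18.4 in neocortex 1 and 2. Thus the tumor intervals overlapped one another and lay apart from those of neocortex. This is not particular to B2m, as the counts were not scaled and the tumors gave more counts in all. Gapdh had 234 to 348 counts in tumor and 27 to 61 in neocortex, and Rpl19 284 to 351 and 26 to 52. Gapdh and Rpl19 were only 2.08 to 3.39 and 2.17 to 2.22 times the highest negative control in neocortex, whereas Actb was 6.94 to 8.42 times it, the farthest above background of the 3.

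**Figure D2:**
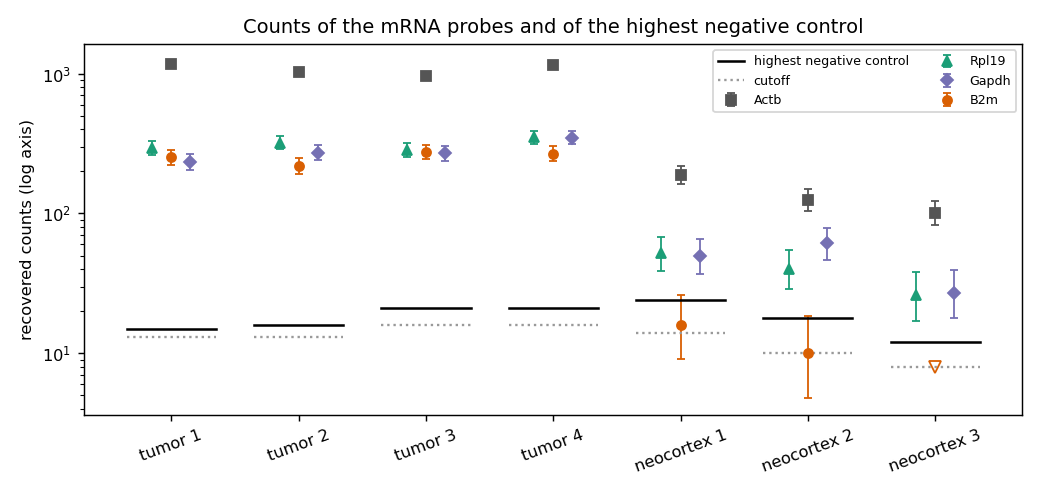
Recovered counts (log axis) of Actb, Rpl19, Gapdh and B2m in each sample, with exact Poisson 95% intervals as bars, the highest negative control as a black line and the cutoff as a dotted line. In the tumors all mRNA probes stand well above the negative control, whereas in neocortex B2m is below it, with the open triangle for neocortex 3 drawn at the cutoff of 8 counts.

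Differences between probes of 1 sample do not depend on how the sample was scaled, and they put B2m apart from the other mRNAs. B2m minus Actb was -2.21, -2.24, -1.81 and -2.10 on the log2 scale in tumor 1 to 4, against -3.56 and -3.64 in neocortex 1 and 2 and at most -3.66 in neocortex 3. The lowest tumor lay 1.32 above the highest neocortex sample. On average the difference was -2.09 ± 0.20 in tumor (SD, n = 4) and -3.62 ± 0.05 in neocortex (SD, n = 3), a shift of 1.53 (SE 0.12, 2-sided exact permutation p = 0.0286). That is the smallest p that the 35 splits of 3 against 4 samples allow. Of 286 probes set against Actb in this way, B2m included, 1.05% lay higher in all tumors than in all neocortex samples.

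Gapdh as the reference gave B2m differences of 0.11, -0.32, 0.03 and -0.38 in tumor 1 to 4, against -1.64, -2.61 and at most -1.76 in neocortex 1 to 3. B2m was thus about level with Gapdh in the tumors and far under it in neocortex, although the counts of 2 probes need not reflect the mRNA amounts in the same proportion. The shift was 1.86 (SE 0.29, 2-sided exact permutation p = 0.0286, n = 4 and 3), and 1.05% of 286 probes lay wholly higher in tumor against Gapdh. With Rpl19 as the reference, B2m differed by -0.23, -0.56, -0.05 and -0.39 in tumor 1 to 4, against -1.70, -2.0 and at most -1.70 in neocortex 1 to 3. This shift was 1.49 (SE 0.15, 2-sided exact permutation p = 0.0286, n = 4 and 3), with 0.699% of 286 probes wholly higher in tumor. In an alternative chosen after seeing the data, the highest negative control was subtracted from every probe. B2m of all neocortex samples was then held at the cutoff, while the other mRNA probes lost counts. The shifts against Actb, Gapdh and Rpl19 were 1.31, 1.15 and 0.65, each with a 2-sided exact permutation p = 0.0286. They are lower bounds under this choice, because B2m of neocortex was counted below the control subtracted from it. Leaving the value of neocortex 3 at the listed 0 gave 3.27, 3.60 and 3.23, which are no measure of size because 0 stands for any level under the cutoff.

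**Figure D3:**
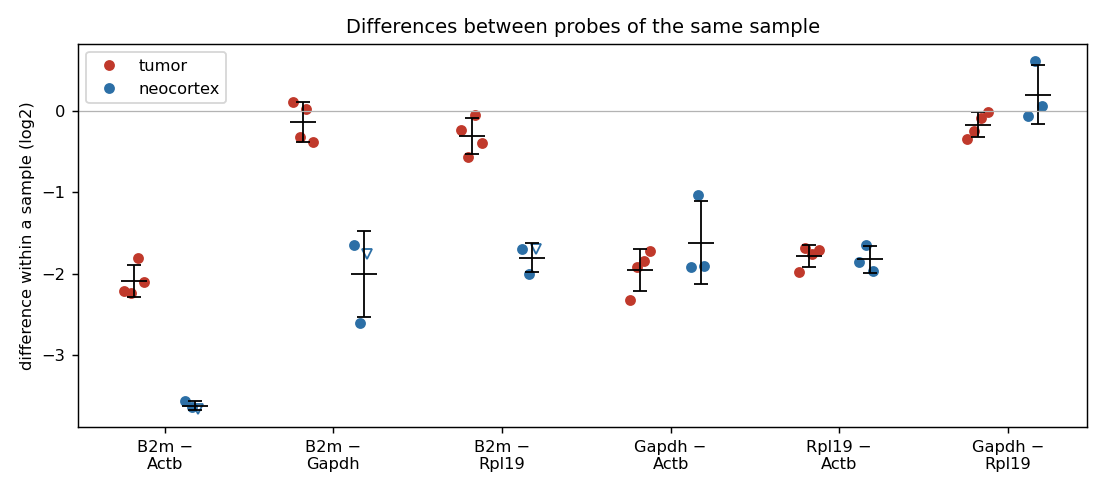
Log2 difference between 2 mRNA probes of the same sample (y axis) for the 6 probe pairs; red points are tumors, blue points neocortex samples, black bars the mean ± SD, and open triangles upper bounds from neocortex 3, where B2m was under the cutoff. The groups are apart for the 3 pairs with B2m and overlap for the 3 pairs without it.

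B2m minus the mean of Actb, Gapdh and Rpl19 was -0.78, -1.04, -0.61 and -0.96 in the tumors of postnatal day 65, 104, 125 and 134, against -2.30, -2.75 and at most -2.37 in neocortex 1 to 3. The highest tumor value was that of day 125 and the lowest that of day 104, the female tumor, and no order by age was seen in these 4 samples. Neocortex 2, also female, was the lowest of its group, and its Gapdh level was the highest there. The shift between groups was 1.63 (SE 0.16, 2-sided exact permutation p = 0.0286, n = 4 and 3), and among male samples alone it was 1.56. As B2m in neocortex was below the highest negative control, the size of this shift is not settled. It was 1.04 with that control subtracted, a lower bound under that choice since B2m of neocortex was held at the cutoff. With the mean of the negative controls subtracted it was 1.63, where controls under the cutoff counted as 0 and B2m was held likewise. With 0 as listed it was 3.37. B2m made up 12.9%, 11.8%, 15.4% and 12.7% of the counts of the 4 mRNA probes in tumor 1 to 4, against 5.21% and 4.24% in neocortex 1 and 2.

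The differences among the other 3 reference mRNAs did not pass the test, and Rpl19 and Actb ran closest. Rpl19 minus Actb was -1.98, -1.68, -1.76 and -1.71 in tumor 1 to 4, against -1.86, -1.64 and -1.96 in neocortex 1 to 3. The 2 groups overlapped over most of their range, and the shift was 0.04 (SE 0.11, 2-sided exact permutation p = 0.771, n = 4 and 3). The SD over all 7 samples was 0.14, the lowest of the 6 pairs. The likeness depended on how background was treated. With the highest negative control subtracted, the shift was 0.66 (2-sided exact permutation p = 0.0286, n = 4 and 3), with Rpl19 relatively higher in tumor. With the mean of the negative controls subtracted instead, Rpl19 rose by 1.17 and Actb by 1.08 on the deposited scale.

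Pair differences with Gapdh varied more, with an SD over all 7 samples of 0.39 against Actb and 0.31 against Rpl19, although the deposited level of Gapdh itself had the lowest SD of the 3 (0.497, against 0.638 for Actb and 0.624 for Rpl19). Gapdh minus Actb was -2.32, -1.92, -1.84 and -1.72 in tumor 1 to 4, against -1.92, -1.03 and -1.90 in neocortex 1 to 3. The groups overlapped, and neocortex 2 was the highest of all 7 samples. The shift of -0.33 (SE 0.29) had a 2-sided exact permutation p = 0.429 (n = 4 and 3), was -0.04 without neocortex 2, and turned to 0.16 with the highest negative control subtracted. Gapdh minus Rpl19 was -0.34, -0.24, -0.08 and -0.01 in tumor 1 to 4, against -0.06, 0.61 and 0.06 in neocortex 1 to 3. Its shift was -0.37 (SE 0.19, 2-sided exact permutation p = 0.0571, n = 4 and 3), and -0.17 without neocortex 2. In all, 12 such tests were made on the mRNA probes, and their p-values are not adjusted for that number.

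On the deposited scale, on which the mean of the brightest miRNAs was alike in all samples, Actb and Rpl19 rose in tumor while Gapdh did not pass the test. Actb had log2 levels of 10.13, 9.55, 9.69 and 9.25 in tumor 1 to 4, against 8.40, 8.52 and 8.87 in neocortex 1 to 3. The groups did not overlap. Actb differed by 1.06, with an SE of 0.26 and an adjusted p = 0.0375 in limma, a 2.08-fold rise. Rpl19 had 8.15, 7.87, 7.93 and 7.54 in tumor 1 to 4, against 6.54, 6.88 and 6.91 in neocortex 1 to 3, again with no overlap. The rise of Rpl19 was 1.10, with an SE of 0.21 and an adjusted p = 0.0175 in limma, or 2.14-fold. Gapdh had 7.81, 7.63, 7.85 and 7.53 in tumor 1 to 4, against 6.48, 7.49 and 6.97 in neocortex 1 to 3. The highest neocortex value of Gapdh lay just under the lowest tumor value, and the difference of 0.73 (SE 0.27) had an adjusted p = 0.114 in limma. Without neocortex 2 the Gapdh difference was 0.98 (adjusted p = 0.0360 in limma).

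Thus 2 of the 4 mRNA probes were called higher with the values as listed, where 8.71% of the 287 probes tested were called higher and 9.76% lower, and all 4 lay wholly higher in tumor, where 15% of the probes did. Their differences of 0.73 to 1.10, B2m apart, compare with a median of 0.03 over the 283 miRNAs tested, with 0 as listed. Over the 197 miRNAs above the cutoff in all 7 samples the median was -0.29. The call of Actb was lost without tumor 1, 2 or 3 or neocortex 1 or 2 (limma adjusted p of 0.0528 to 0.106), and that of Rpl19 without tumor 2 or 3 (limma adjusted p = 0.0577 and 0.0591). Summed over the 4 probes, mRNA signal was 1.66%, 1.21%, 1.39% and 1.02% of the miRNA signal in tumor 1 to 4, against 0.505%, 0.637% and 0.653% in neocortex 1 to 3. This ratio, which no scaling affects, was 2.18-fold higher in tumor (2-sided exact permutation p = 0.0286, n = 4 and 3). It was highest in the day 65 tumor and lowest in the day 134 tumor, and all tumors lay above all neocortex samples.

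Against the positive controls every mRNA probe was higher in tumor, as were most miRNAs. On the log2 scale relative to the mean of the 5 highest positive controls, B2m averaged -1.66 ± 0.12 in tumor (SD, n = 4) and at most -5.96 ± 0.22 in neocortex (SD, n = 3), a shift of 4.30. Actb averaged 0.43 ± 0.19 in tumor and -2.34 ± 0.17 in neocortex, a shift of 2.77. Rpl19 averaged -1.35 ± 0.14 in tumor and -4.16 ± 0.17 in neocortex, a shift of 2.81, and Gapdh -1.52 ± 0.13 in tumor and -3.96 ± 0.40 in neocortex, a shift of 2.44 (SD, n = 4 and 3). Each shift had a 2-sided exact permutation p = 0.0286. Since 86.4% of the 287 probes also lay wholly higher in tumor on this scale, the direction says nothing particular to the mRNA probes, and RNA input and RNA content cannot be told apart here.

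When every probe was expressed relative to the mean of Actb, Gapdh and Rpl19 of its sample, B2m was 1 of 2 probes called higher in tumor. Its tumor mean was -0.85 ± 0.19 (SD, n = 4) and its neocortex mean -2.47 ± 0.24 (SD, n = 3), a difference of 1.63 with an SE of 0.23 (limma adjusted p = 6.94e-05, over 284 probes). The other large rise was that of miR-21, at 1.80 (SE 0.32, adjusted p = 0.000263 in limma). The rise of B2m is not ranked, since its neocortex counts were below the highest negative control in neocortex 1 and 2 and under the cutoff in neocortex 3. B2m and miR-21 were the only probes called higher on this scale, 0.704% of those tested, where 1.06% lay wholly higher in tumor, while 80.3% were called lower and the median miRNA stood at -1.28. Among the 197 miRNAs above the cutoff in all 7 samples, 0.508% were called higher and 78.2% lower. The other 86 miRNAs were set to the cutoff in at least 1 sample, so a rise of theirs may be understated, as is that of B2m in neocortex 3. With 0 as listed, 10 probes were called higher and B2m was not among them (3.37, adjusted p = 0.0627 in limma).

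**Figure D4:**
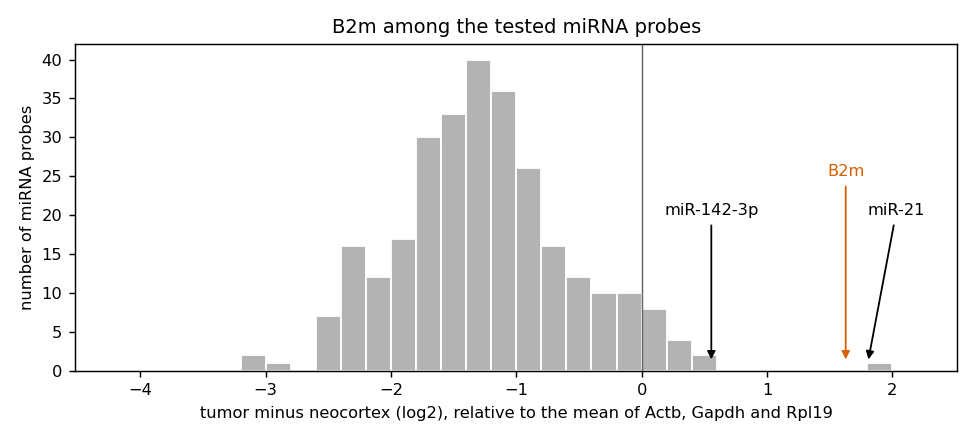
Distribution of the tumor minus neocortex difference (log2, x axis) of the 283 tested miRNA probes after each sample was expressed relative to its mean of Actb, Gapdh and Rpl19, with the number of probes on the y axis. Most miRNAs lie left of 0, and arrows mark B2m at 1.63, miR-21 at 1.80 and miR-142-3p at 0.56.

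The miRNAs whose values ran most like those of B2m on this scale were miR-21, often raised in cancers and reactive glia, and miR-142-3p, which is specific to blood-derived cells and microglia. Pearson's r with B2m over the 7 samples was 0.93 for miR-21 and 0.74 for miR-142-3p. It was 0.57 for the probe that reads miR-106a with miR-17, 0.53 for the one that reads miR-20a with miR-20b, and 0.39 for miR-669f, out of 275 miRNAs above the cutoff in at least 5 samples. These values are a description, since all points share the subtraction of the same 3 probes and lie in 2 groups of samples. In neocortex 2 and 3 miR-142-3p was set to the cutoff, 4.88 and 5.21. B2m stood at the same values there, so these points of the pair were equal by construction. The mature sequences of the first pair are given with the seed, bases 2 to 8, in capitals, as RefSeq lists them under the current names miR-21a-5p and miR-142a-3p.
miR-21: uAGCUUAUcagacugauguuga
miR-142-3p: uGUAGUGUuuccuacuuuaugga
The seeds differ. miR-142-3p had deposited log2 levels of 7.33, 6.28, 6.30 and 6.18 in tumor 1 to 4, against 4.93 in neocortex 1 and 0 in neocortex 2 and 3. Relative to the reference mRNAs it differed by 0.56 (SE 0.26), without passing the test (adjusted p = 0.0682 in limma).

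On the deposited scale Actb and Rpl19 ran alike, with r = 0.98 over the 7 samples, and B2m, with 0 at the cutoff, ran about as closely with Rpl19 (r = 0.98) and Actb (r = 0.95). Gapdh ran less closely with Actb (r = 0.79), B2m (r = 0.81) and Rpl19 (r = 0.88). The miRNAs most like Actb were the probe of miR-20a and miR-20b (r = 0.996), miR-142-3p (r = 0.98), miR-29a (r = 0.96), miR-19b (r = 0.94) and miR-130b (r = 0.94). For Rpl19 the same probe led (r = 0.96), followed by miR-142-3p (r = 0.95), miR-29b and miR-29a (r = 0.94 each) and miR-22 (r = 0.92). Gapdh was most like miR-29b (r = 0.90), miR-221 (r = 0.87), miR-125a-3p (r = 0.85), miR-125a-5p (r = 0.83) and miR-148a (r = 0.83). All samples share 1 scaling factor per sample across these probes, and most of each r comes with the 2 groups lying apart.

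Marker miRNAs of the cell types that such tissue can hold are given beside B2m. Of 8 microglial and white blood cell miRNAs, 7 were tested. On the deposited scale 2 were called higher, miR-142-3p and miR-146a, and 0 lower in limma, and without adjustment the counts were also 2 and 0. Over all probes on that scale 8.71% were called higher and 9.76% lower. The list's median there was 0.32. Relative to the reference mRNAs 0 were called higher and 3 lower in limma (0 and 4 without adjustment), where 0.704% and 80.3% of all probes were, and the median was -0.64, against -1.28 for all tested miRNAs. The summed linear level of this list was 782 to 1315 units in tumor and 784 to 1016 units in neocortex, so the groups overlapped, and miR-142-5p was listed at 0 in all 7 samples. The 2 most abundant of them on the deposited scale were miR-342-3p, at -0.54, and miR-150, at -0.49, neither of which passed the test. miR-146a, a target of NF-kappa B signalling, was listed at 0 in all 3 neocortex samples and at 5.26, 5.88, 5.82 and 5.91 in tumor 1 to 4. The cutoffs of neocortex 1 to 3 were 4.65, 4.88 and 5.21, so the size of its rise is not settled. Both calls above kept 0 as listed, and miR-142-3p was also at 0 in neocortex 2 and 3. With 0 at the cutoff and relative to the reference mRNAs, miR-146a differed by -0.16 (SE 0.30, adjusted p = 0.640 in limma).

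On the scale of the reference mRNAs the medians were -0.26 for 3 red blood cell miRNAs, -0.51 for 4 endothelial and mural miRNAs, -0.86 for 7 astrocyte miRNAs, -1.43 for 7 neuron miRNAs and -3.04 for 3 oligodendrocyte miRNAs. Called lower were 1 of 3 red blood cell, 1 of 4 endothelial and mural, 5 of 7 astrocyte, 7 of 7 neuron and 3 of 3 oligodendrocyte miRNAs, where 80.3% of all probes were. The named red blood cell miRNAs, miR-451 and miR-144, lay at -0.25 and -0.26, the endothelial miR-126-3p at -0.02 and the mural miR-145 at -1.18. In the astrocyte list miR-29b and miR-29a lay at -0.26 and -0.30, in the neuron list miR-124 and miR-128 at -1.81 and -1.71, and in the oligodendrocyte list miR-338-3p and miR-219 at -3.04 and -3.15. Summed linear levels in deposited units were 396 to 675 in tumor and 268 to 366 in neocortex for the red blood cell list, 1633 to 3246 in tumor and 1202 to 1538 in neocortex for the endothelial and mural list, and 13979 to 17859 in tumor and 10163 to 12515 in neocortex for the astrocyte list. For the neuron list they were 6655 to 9654 in tumor and 8866 to 16307 in neocortex, and for the oligodendrocyte list 1004 to 2323 in tumor and 5985 to 7702 in neocortex. What part these cell types have in the B2m difference was not tested.

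**Figure D5:**
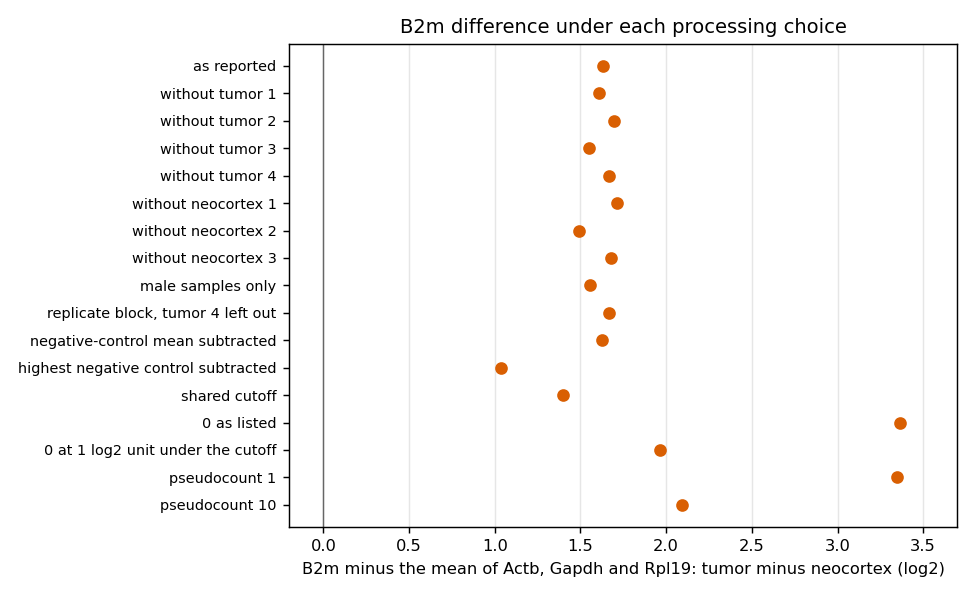
Tumor minus neocortex difference (log2, x axis) of B2m minus the mean of Actb, Gapdh and Rpl19 under each processing choice (y axis), with the reported 1.63 at the top. All values lie above 0, between 1.04 with the highest negative control subtracted and 3.37 with B2m of neocortex 3 left at the listed 0. The 1.04 is a lower bound under that choice, as B2m of neocortex was held at the cutoff.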

How the data were processed

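Per the labels, total RNA of 4 tumors and 3 neocortex samples was extracted with the miRVana kit; the panel was version 1.3. The authors deposited log2 values. How they were normalized and background-corrected is not given in the sources used. Whole counts were recovered from the low values: all of the 151 to 264 values per sample of up to 60 counts were whole within 0.02 counts plus the rounding of the decimals, so large counts are approximate. The deposited cutoff is the lowest value above 0 of a sample. limma 3.58.1 in R 4.3.3 tested 283 miRNAs, those with a mean over the 7 samples of at least the median over all miRNA probes (2.80), plus the mRNA probes, at an adjusted p of 0.05. It was tested on simulated data. No count model was run on log values. Probe differences used exact permutation tests of the difference in means over 35 splits. For these, for the scale of Actb, Gapdh and Rpl19 and for the positive-control scale, 0 was set to the cutoff; SEs of differences pool the spread of both groups.

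Named miRNAs are the 5 most like each mRNA probe and the 2 most abundant of each cell type list; miR-142-3p and miR-146a complete a count. The members, lists and tests were chosen with earlier results of these data known. Samples were not treated as paired by replicate number. Correlations of their deviations from the group means were -0.19, 0.18 and 0.13 for numbers 1 to 3, which with so few samples cannot exclude a pairing. Alternatives comprised scalings, cutoffs, pseudocounts, background, filters, sex, a replicate block and each sample left out.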

Additional observations from a re-analysis of the deposited data

How the results depend on the processing

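All 4 differences of B2m from the other mRNA probes kept their direction under every alternative, as did the positive-control differences and the mRNA to miRNA ratio. Tests on male samples, on paired numbers or with 1 sample left out cannot reach 0.05 by permutation, so only their values were compared. Leaving out 1 sample in turn gave 1.49 to 1.72 for B2m on the scale of Actb, Gapdh and Rpl19 in both tests, 0.90 to 1.20 for Actb, 2.71 to 5.15 for B2m, 0.48 to 0.98 for Gapdh and 0.98 to 1.21 for Rpl19 on the deposited scale, -0.033 to 0.13 for Rpl19 minus Actb and -0.49 to -0.04 for Gapdh minus Actb. With the replicate block, tumor 4 left out, Actb and Rpl19 lay at 1.19 and 1.21 on the deposited scale and lost their calls, and with male samples only at 1.06 and 1.15, also without a call; with sex as a covariate Actb lost its call at 1.05. The block put B2m on the reference mRNA scale at 1.67, still called, and changed no other call on a mRNA probe. B2m on the deposited scale passed the test with the trend and robust fit (4.33), the negative-control mean subtracted (2.64), the highest negative control subtracted (2.54), the shared cutoff of 5.21 (2.36), 0 at the cutoff (2.59), a pseudocount of 10 (3.01), and scaling on the 100 brightest miRNAs (4.40), quantiles (3.26) or positive controls (5.60). It did not pass with any 1 tumor left out, with male samples only (5.23), the block (4.46) or sex as a covariate (4.41). Nor did it pass with no filter (4.33), a pseudocount of 1 (4.30) or median scaling (4.36). Gapdh passed with the negative-control mean (0.79) or the highest negative control subtracted (1.39), with quantiles (0.83) and with positive controls (2.44). B2m on the reference mRNA scale lost its call with 0 as listed (3.37). The highest negative control subtracted turned Gapdh minus Actb to 0.16 and moved Rpl19 minus Actb past the test at 0.66. Calls over all probes on the deposited scale were 25 higher and 28 lower in limma, 5 and 0 with the block (31 lower at an unadjusted p under 0.05), 232 and 0 on positive controls (0 lower unadjusted), 23 and 6 in males, 16 and 25 with sex, 69 and 33 with no filter, 40 and 31 by quantiles, 41 and 83 with the highest negative control subtracted, 28 and 66 with the negative-control mean subtracted and 24 and 66 with 0 at the cutoff; leaving out 1 sample gave 13 to 34 and 10 to 42. On the reference mRNA scale 2 were higher and 228 lower, 3 and 515 with no filter and 10 and 135 with 0 as listed. Counts of no more than 61 per probe in neocortex, for all but Actb, limit the precision of every ratio there.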

Other observations

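Of the 8 negative-control probes, NEG_D alone lay above the cutoff in neocortex. It had 14 counts in tumor 1, under 13 in tumor 2 and 21 each in tumor 3 and 4, against 24, 18 and 12 in neocortex 1 to 3. NEG_B had 15 and 16 counts in tumor 1 and 2 and was under the cutoff in the other 5 samples. Thus the count of B2m in each neocortex sample was under that of NEG_D, and in each tumor over 12 times that of the highest negative control.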
